A study of Mus musculus with 24 samples.

Results

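The mitochondrial chromosome carries its own small set of genes: 13 for protein subunits of the oxidative phosphorylation complexes, 2 for ribosomal RNAs and 22 for transfer RNAs. All rows of the deposited estimated-count table whose symbol starts with mt- were taken, which gave these 37 genes among 55291 rows. The libraries came from mouse hippocampus and come from MeRIP-seq, in which an antibody against N6-methyladenosine (m6A) pulls down the RNA that carries it. Hippocampus was taken from 4 untreated wild-type animals, 4 vehicle-treated animals of the 5xFAD line and 4 animals of that line treated with MS1262, which the series title names as an inhibitor of the histone methyltransferase G9a. 5xFAD mice carry mutant human amyloid precursor protein and presenilin transgenes driven by the Thy1 promoter, which is active mainly in neurons. The untreated wild-type animals got no vehicle, so against them genotype and dosing cannot be told apart. Each animal gave 1 input library, which measures RNA level, and 1 IP library.

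Both strands of the mitochondrial chromosome are transcribed inside the organelle as long precursors, which are cut at the transfer RNAs into messenger and ribosomal RNAs, most of which then receive a short poly(A) tail. The main m6A writer of messenger RNA, the Mettl3 and Mettl14 complex, acts in the nucleus on nuclear transcripts. The proteins encoded by mt- genes assemble with nuclear-encoded subunits into complexes I, III, IV and V, on which neurons depend for most of their ATP. According to the labels' protocol, RNA was selected by oligo(dT) before the antibody step and copied by SMART-seq, which keeps no record of strand, and no fragmentation is named, so IP values are read per transcript.

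Input libraries held 20.7 to 43.2 M estimated counts and IP libraries 3.98 to 48.6 M, the smallest being the IP library of vehicle animal 4, which stood apart in many results given here. Vehicle animal 3 also stood apart, with 33 Xist counts in its input against 771 to 2006 in the other inputs, at most 4 counts of any Y-linked gene in any library, and 179555 counts of the choroid plexus gene Ttr. Main counts and medians are therefore also given without vehicle animal 4, and some without vehicle animal 3. The neuronal markers set for this tissue (8 genes, Rbfox3 and Snap25 among them) summed to 8671 to 10617 CPM (counts scaled to a common library total) in the inputs, and none was at 0.

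The 22 transfer RNA genes were at 0 in all 24 libraries. A count of 0 allows up to 3 counts per library, which is 0.0617 to 0.753 CPM depending on depth, for counting error only. Transfer RNAs carry no poly(A) tail and are short. They are taken as not measured by these libraries, so neither the 0 counts nor this floor bounds their level. Why they were at 0 was not tested. The other 15 genes, 13 protein-coding and 2 ribosomal, had counts in every library, passed the low-count filter and were tested.

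Mitochondrial transcripts took up a large part of the input RNA and a smaller part of the IP RNA. They held 10.8, 10.0, 11.8 and 9.99% of the counts in the inputs of wild-type animals 1 to 4. In vehicle animals 1 to 4 they held 13.9, 12.9, 12.6 and 16.7%, and in MS1262 animals 12.3, 12.9, 12.7 and 12.7%. The wild-type values did not overlap with those of either 5xFAD group, and the vehicle and MS1262 values overlapped. Group means were 10.7 ± 0.854, 14.03 ± 1.87 and 12.6 ± 0.264% (wild-type, vehicle and MS1262, SD, n = 4). In the IP libraries the values were 7.17, 5.35, 5.18 and 5.09% for wild-type, 6.45, 6.18, 6.26 and 4.22% for vehicle and 6.997, 6.48, 6.23 and 6.52% for MS1262 animals. In every animal the share was lower in the IP than in its own input, and the 3 groups overlapped in the IP.

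**Figure D1:**
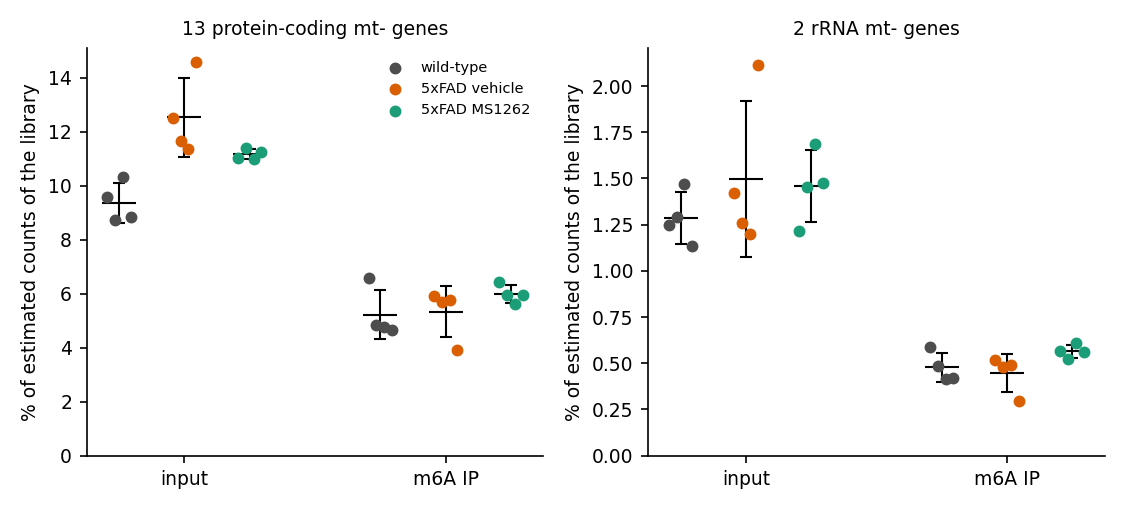
Share of each library's estimated counts in the 13 protein-coding (left) and 2 ribosomal (right) mt- genes, in percent; points are animals, horizontal bars means and error bars SD (n = 4). Protein-coding shares were 9.37 ± 0.741% for wild-type, 12.5 ± 1.45% for vehicle and 11.2 ± 0.191% for MS1262 inputs, and lower in the IP libraries.

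The 2 ribosomal RNAs made up only a small part of this. They held 1.29 ± 0.139, 1.499 ± 0.423 and 1.46 ± 0.193% of input counts in wild-type, vehicle and MS1262 animals (SD, n = 4), with overlapping values. In the IP they held 0.477 ± 0.0809, 0.447 ± 0.101 and 0.565 ± 0.0354%. Since RNA was selected by poly(A), these levels describe the polyadenylated part of the ribosomal RNAs.

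Levels of different genes were compared as input CPM per kilobase of annotated length. In wild-type animals mt-Atp6, a subunit of the proton channel of ATP synthase (complex V), stood highest at 30701 ± 2651 CPM per kb (SD, n = 4). The complex III subunit cytochrome b, mt-Cytb, followed at 13307 ± 1709 and the catalytic subunit of cytochrome c oxidase (complex IV), mt-Co1, at 13118 ± 1484, which did not differ beyond their spread. mt-Atp8, another ATP synthase subunit, at 10946.5 ± 1007, and the other complex IV subunits mt-Co3, at 10617 ± 659, and mt-Co2, at 9748 ± 1116, overlapped as well. The complex I subunits ran from 7134 ± 607 for mt-Nd1 over 4408 ± 642 for mt-Nd4, 2718 ± 436 for mt-Nd2, 1923 ± 96.2 for mt-Nd5, 1242 ± 78.5 for mt-Nd6 and 973 ± 104 for mt-Nd3 to 597 ± 70.5 for mt-Nd4l. Of the ribosomal RNAs, mt-Rnr2 lay at 6828 ± 816 and mt-Rnr1 at 2203 ± 324.

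The deposited TPM, which the authors scaled by transcript length, order these genes differently. mt-Atp8, a small ATP synthase subunit of 204 bases, reached 242564 ± 12903 TPM in wild-type inputs, against 15947 ± 1390 TPM for mt-Co1. The length implied by its TPM and count was 0.724% of that of mt-Co1, while its annotated length is 13.2% of it. With this gene included, the mt- share of TPM was 39.9 ± 2.01% in wild-type inputs. TPM were therefore not used to rank these genes. For mt-Nd3 and mt-Nd4l the implied length was 7.57 and 3.76% of that of mt-Co1, against 22.5 and 19.2% by annotation. Levels per kb of these short genes thus depend on the length used.

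Neighbouring genes on the chromosome share bases, and reads there cannot be assigned with certainty. On GRCm38, mt-Atp8 (MT, 7766 to 7969) and mt-Atp6 (7927 to 8607) share 43 bases, and mt-Nd4l (9877 to 10173) and mt-Nd4 (10167 to 11544) share 7. Both pairs are known to be carried on joint messenger RNAs. mt-Nd6 (13552 to 14070) lies on the opposite strand to mt-Nd5 (11742 to 13565) and shares 14 bases with it. Without strand, reads antisense to mt-Nd6 cannot be told apart from its own, and in human cells its messenger is known to lack a poly(A) tail.

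Between vehicle-treated 5xFAD and wild-type hippocampus, all 15 mitochondrial transcripts had higher fitted levels in 5xFAD, and 5 of them passed the test. These were the complex IV subunits mt-Co1, mt-Co2 and mt-Co3 and the complex I subunits mt-Nd3 and mt-Nd4l, with rises of 1.37 to 1.51-fold. Over all 17693 genes tested, 1.06% were called higher and 0.514% lower (edgeR quasi-likelihood test, Benjamini-Hochberg adjusted p below 0.05). The median log2 fold change was 0.38 over the 15 genes, 0.41 over the protein-coding ones, and 0.01 over all genes. No mt- gene was lower. At an unadjusted p below 0.05, 12 of the 15 passed, beside 2263 of all 17693 genes.

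mt-Co3, a core subunit of cytochrome c oxidase, gave 8297, 7995, 9062 and 7941 CPM in wild-type inputs, 12366, 11368, 11315 and 15337 in vehicle inputs and 10358, 10941, 10061 and 10781 in MS1262 inputs. The 3 groups did not overlap: wild-type was lowest, MS1262 between, and vehicle highest, with animal 4 above the rest. The vehicle against wild-type difference was log2 0.60 (SE 0.10, edgeR adjusted p = 0.00817). It passed with each single animal left out (adjusted p 0.00448 to 0.0362).

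mt-Nd4l, a membrane subunit of complex I, gave 198, 153, 192 and 167 CPM in wild-type, 262, 248, 238 and 304 in vehicle and 221, 226, 200.3 and 212 in MS1262 inputs. These groups did not overlap either and stood in the same order. The vehicle against wild-type difference was log2 0.57 (SE 0.10, edgeR adjusted p = 0.0114). Without wild-type animal 4 it was no longer called.

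mt-Co1 gave 19463, 18792, 23682 and 19132 CPM in wild-type and 28395, 24597, 25457 and 32856 in vehicle inputs, and wild-type animal 3 lay above the other wild-type animals. mt-Co2, which holds the copper centre that takes up electrons from cytochrome c, gave 6513, 6311, 7779 and 6066 CPM in wild-type and 9313, 8489, 8119 and 10758 in vehicle inputs. Neither gene's groups overlapped. Their differences were log2 0.46 (SE 0.10, edgeR adjusted p = 0.0423) and 0.46 (SE 0.10, adjusted p = 0.0412). mt-Nd3, a complex I subunit at the junction of its arms, gave 334, 324, 390.1 and 306 CPM in wild-type and 466, 418, 439 and 619 in vehicle inputs, a difference of log2 0.52 (SE 0.12, edgeR adjusted p = 0.0448).

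**Figure D2:**
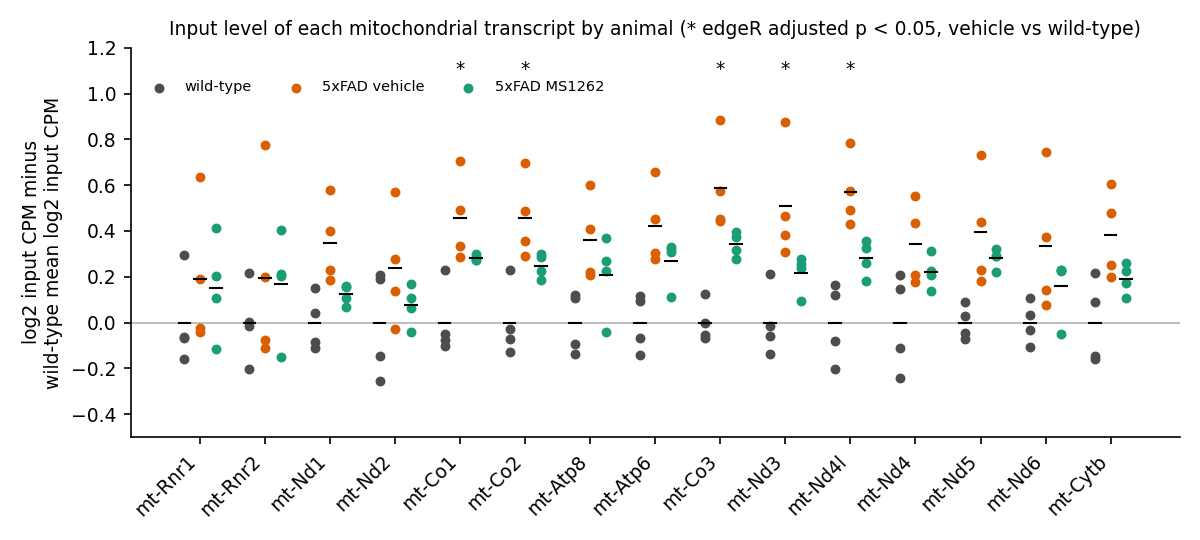
Input level of the 15 measured mt- genes in chromosome order, as log2 CPM minus the wild-type mean log2 CPM of the same gene; points are animals, short bars group means, and asterisks mark the 5 genes with edgeR adjusted p below 0.05 in vehicle against wild-type. Vehicle animal 4 is the highest point of nearly every gene, and the ribosomal genes at the left overlap between groups.

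The other 10 genes did not pass. mt-Atp6 had log2 0.43 (SE 0.10, edgeR adjusted p = 0.0535), mt-Nd5 0.41 (adjusted p = 0.0885), mt-Cytb 0.38 (0.119) and mt-Nd1 0.35 (0.104). The ribosomal RNAs had the smallest differences, log2 0.21 for mt-Rnr1 (SE 0.16) and 0.24 for mt-Rnr2 (SE 0.18), with overlapping values. In all, 9 of the 15 genes had every vehicle animal above every wild-type animal, compared with 4.08% of all genes tested (3.00% lay wholly below).

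How many passed depended on the animals and the tool. The count was 6 without vehicle animal 3, 5 without wild-type animal 3 or MS1262 animal 1, and 2 without vehicle animal 4. It was also 2 without wild-type animal 1 or 2, vehicle animal 1 or 2, or MS1262 animal 2, 3 or 4, and 1 without wild-type animal 4. DESeq2 called 9 of the 15 higher. Over all alternatives run, the count of all genes called higher ran from 29 to 402. On log2(TPM + 1) limma called 1, mt-Co3, with a log2 difference of 0.43. In edgeR without vehicle animal 4 the median log2 fold change of the 15 was 0.29.

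The make-up of the mitochondrial counts does not depend on scaling over nuclear genes. By group, it is given for inputs of mt-Co3 and mt-Atp6 alone. The share of mt-Co3 shifted slightly, and whether other genes shifted alike is not given. mt-Co3 held 7.59, 8.10, 7.499 and 8.04% of all mt- counts in wild-type inputs, 8.58, 9.07, 8.99 and 8.98% in vehicle inputs and 8.85, 8.46, 7.88 and 8.43% in MS1262 inputs. Vehicle lay above wild-type without overlap, and MS1262 overlapped with both. mt-Atp6, the most abundant, took a like share of the pool in each group, at 19.6 ± 0.790, 19.9 ± 0.507 and 20.0 ± 0.522% (SD, n = 4).

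Between MS1262 and vehicle, no mt- gene passed in edgeR or DESeq2, nor did any of the 17693 genes (0%) in edgeR. At an unadjusted p below 0.05 there were 4 of the 15 mt- genes and 1003 genes in all. All 15 fitted differences were below 0, from log2 −0.31 for mt-Nd3 (SE 0.12) to −0.05 for mt-Rnr1 (SE 0.16), with a median of −0.18 against −0.01 over all genes. In mt-Nd1, mt-Co3, mt-Nd3 and mt-Nd4l every MS1262 animal lay below every vehicle animal, compared with 1.85% of all genes (1.55% lay wholly above). Without vehicle animal 4 the median was log2 −0.07, and the differences of mt-Rnr1 and mt-Rnr2 were above 0, at log2 0.12 and 0.17.

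Between MS1262 and wild-type, no mt- gene passed in edgeR, where 0.910% of genes were called higher and 0.390% lower. At an unadjusted p below 0.05 there were 6 of the 15, beside 2522 of all 17693 genes. DESeq2 called mt-Co3, and so did edgeR without vehicle animal 4. The fitted differences ran from log2 0.06 for mt-Nd2 (SE 0.13) to 0.34 for mt-Co3 (SE 0.10, edgeR adjusted p = 0.127), with a median of 0.21. In mt-Co1, mt-Co3, mt-Nd4l and mt-Nd5 every MS1262 animal lay above every wild-type animal, compared with 5.23% of all genes (4.90% lay wholly below). The 3 comparisons share their groups, so their values are set side by side and not counted as separate support.

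The nuclear partners were taken as 75 genes for subunits of complexes I to V. None passed between vehicle and wild-type in edgeR, 8 had an unadjusted p below 0.05 (2263 of all 17693 genes did), and their median was log2 −0.03. Among those with the smallest p, fitted values lay below 0 for the complex I genes Ndufb11 (log2 −0.44, SE 0.15) and Ndufb7 (−0.70, SE 0.26) and above 0 for the complex IV gene Cox7a2 (0.29, SE 0.11). Between MS1262 and wild-type, 2 of the 75 fell, where 0.390% of all genes fell. They were Sdhb, the iron-sulfur subunit of complex II (log2 −0.42, edgeR adjusted p = 0.0471), and Atp5pb of the ATP synthase stalk (−0.42, adjusted p = 0.0461). At an unadjusted p below 0.05 there were 23 of the 75, beside 2522 of all 17693 genes. Between vehicle and wild-type none of 37 genes for transcription, replication and RNA turnover in mitochondria passed; Tfb2m, which opens the promoter for the mitochondrial polymerase, had log2 −0.27 (SE 0.10, adjusted p = 0.266). None of 19 genes listed for mitochondrial RNA modification passed, nor any of 83 tested mitochondrial ribosomal protein genes (Mrpl19: log2 −0.33, edgeR adjusted p = 0.0551). Of the 19, Mettl4, whose role in mitochondrial RNA was not checked here, had log2 −0.26 (edgeR adjusted p = 0.213). At an unadjusted p below 0.05 there were 3 of the 37, 1 of the 19 and 19 of the 83, beside 2263 of all 17693 genes. Against wild-type, MS1262 animals had lower Mrpl19 (log2 −0.37, edgeR adjusted p = 0.034) and Mrpl36 (−0.70, adjusted p = 0.0462), and 28 of the 83 had an unadjusted p below 0.05. Without any one wild-type or MS1262 animal, 0 of the 75 and 0 or 1 of the 83 were called lower in that comparison. Without vehicle animal 1 the counts were 0 and 3, without vehicle animal 2 they were 4 and 2, without vehicle animal 3 they were 3 and 2, and without vehicle animal 4 they were 4 and 5. DESeq2 called 9 and 10. Over all alternatives run, the count of all genes called lower in that comparison ran from 17 to 260.

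Markers of other cell types and nuclear-retained RNAs were set beside these levels. Of 5 microglial markers, Tmem119 (log2 2.09) and Cx3cr1 (1.01) rose between vehicle and wild-type in edgeR, where 1.06% of all genes rose. All 5 had an unadjusted edgeR p below 0.05 in that comparison, beside 2263 of all 17693 genes. Between MS1262 and wild-type 4 of the 5 did, beside 2522 of all 17693 genes. The summed level of the 5 was 189 to 226 CPM in wild-type inputs, 210 to 352 in those of vehicle animals and 250 to 283 in those of MS1262 animals, and none was at 0. Sums of astrocyte, oligodendrocyte, endothelial, red blood cell and meningeal markers, like the microglial ones, overlapped between vehicle and wild-type. The choroid plexus sum reached 7407 CPM in vehicle animal 3, where the mt- share was 12.6%. Nuclear-retained RNAs (10 genes, Malat1 and Neat1 among them) summed to 1507 to 2157 CPM for wild-type, 1552 to 3494 for vehicle and 2527 to 3145 for MS1262 inputs. Their part in the mitochondrial levels was not tested, and in bulk tissue a changed number of cells and a changed amount of RNA per cell cannot be told apart.

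The antibody fraction held less of each mitochondrial transcript than the input did. Over the 3 groups all 15 genes were lower in the IP than in input, where 27.7% of 18300 genes tested were called lower and 28.2% higher (edgeR with the animal as a block, adjusted p 7.84e-11 to 0.00414 for the 15). Their median was log2 −1.30, and that of all genes 0.00. Without vehicle animal 4 the 15 values ran from −2.31 to −0.43, with a median of −1.16. Each of the 15 had an IP over input ratio below 1 in each of the 12 animals. These ratios are relative to all other RNA in the same libraries and do not measure m6A per molecule.

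The 15 genes spread widely, with SE of 0.07 to 0.18. The lowest was mt-Nd3, at log2 −2.45 (SE 0.15), a 5.47-fold depletion. The ribosomal RNAs mt-Rnr1, at −2.15 (SE 0.15), and mt-Rnr2, at −1.69 (SE 0.12), came next. The complex IV subunits lay at −1.50 for mt-Co3, −1.44 for mt-Co1 and −0.94 for mt-Co2 (SE 0.07 each), and the ATP synthase subunits at −1.42 for mt-Atp6 (SE 0.11) and −1.33 for mt-Atp8 (SE 0.17). mt-Cytb lay at −1.30 (SE 0.07) and mt-Nd1 at −1.27 (SE 0.10). The other complex I subunits were the least depleted: mt-Nd4 at −0.84 (SE 0.09), mt-Nd2 at −0.70 (SE 0.14), mt-Nd6 at −0.67 (SE 0.18), mt-Nd5 at −0.64 (SE 0.09) and mt-Nd4l at −0.57 (SE 0.12).

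Values of single animals are given for 3 genes that span this range. The log2 ratio of mt-Nd3 was −1.40, −2.43, −2.63 and −2.03 in wild-type animals 1 to 4, −2.49, −2.72, −2.28 and −4.36 in vehicle animals, and −2.14, −2.43, −2.64 and −2.13 in MS1262 animals. That of mt-Rnr1 was −1.50, −2.06, −2.54 and −1.93, then −2.17, −2.14, −1.86 and −4.07, then −1.49, −2.11, −2.14 and −1.93. That of mt-Nd5 was −0.34, −0.39, −0.59 and −0.53, then −0.61, −0.47, −0.56 and −1.88, then −0.54, −0.65, −0.60 and −0.58. Wild-type animal 1 had the ratio nearest to 1 of its group in most genes, and vehicle animal 4 the lowest of all animals in each of these 3 genes.

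**Figure D3:**
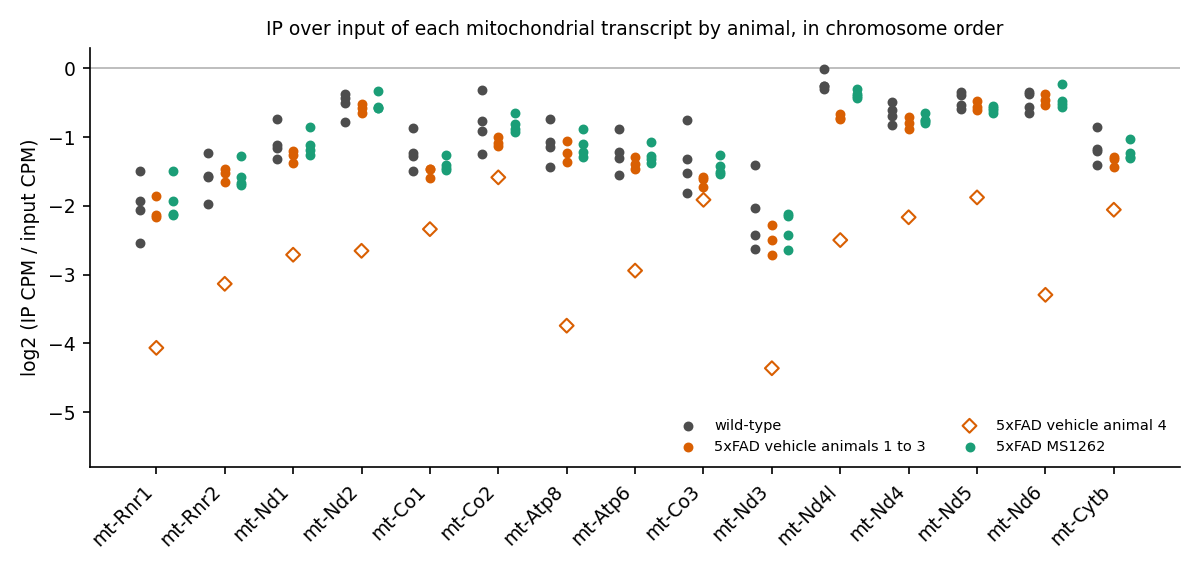
IP over input of the 15 measured mt- genes in chromosome order, as log2 of the ratio of CPM; points are animals, and vehicle animal 4 is drawn as an open diamond. All points lie below 0, mt-Nd3 and mt-Rnr1 are on average the lowest, and the open diamond lies apart from the other vehicle animals in most genes.

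Taken by group, 12 of 15 genes were lower in the IP in wild-type (16.2% of all genes; 16.8% higher), 15 in vehicle (20.6%; 19.1% higher) and 12 in MS1262 animals (17.6%; 20.5% higher). The 3 genes not called in wild-type and MS1262 animals were mt-Nd2, mt-Nd4l and mt-Nd6, with log2 values of −0.52 (SE 0.23), −0.21 (SE 0.20) and −0.48 (SE 0.30) in wild-type and −0.51, −0.38 and −0.45 in MS1262 animals. Without vehicle animal 4 all 15 were called lower in each of the 3 groups.

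Within the mitochondrial counts, the make-up of the IP differed from that of the input. mt-Nd4l held 0.155 to 0.181% of mt- counts in wild-type inputs and 0.289 to 0.344% in wild-type IP libraries. mt-Nd3 held 0.305 to 0.328% of mt- counts in wild-type inputs and 0.135 to 0.199% in the IP, and mt-Rnr1 1.83 to 2.12% and 0.975 to 1.11%. The IP library of vehicle animal 4 again differed: mt-Co3 held 12.6% of its mt- counts against 6.74 to 7.20% in the other vehicle IP libraries, and mt-Atp6 13.2% against 18.6 to 19.9%.

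**Figure D4:**
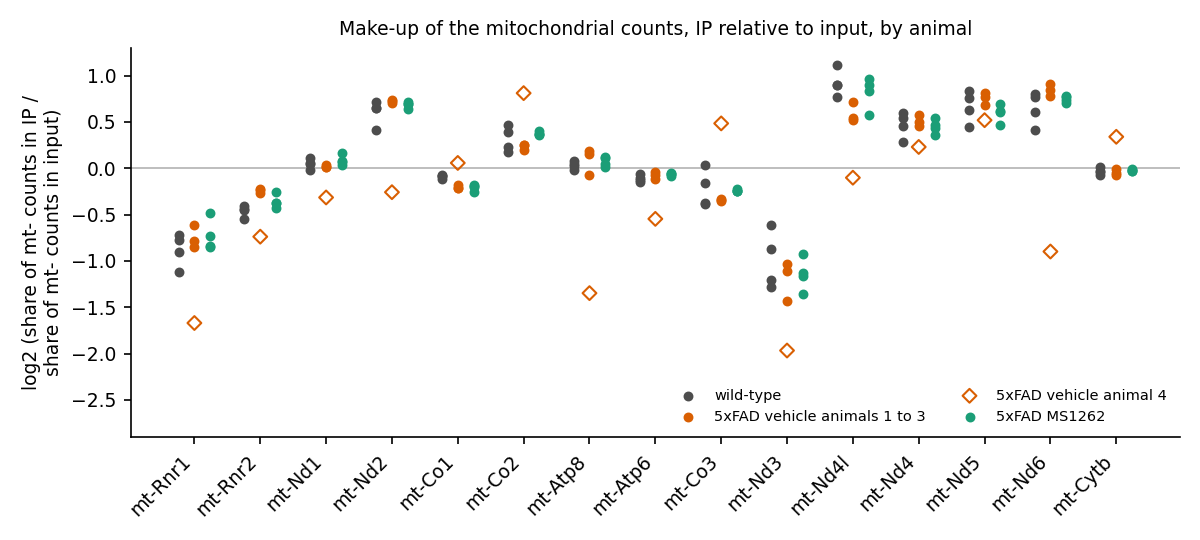
Make-up of the mt- counts: log2 of each gene's share of mt- counts in the IP over its share in input of the same animal. mt-Nd3, mt-Rnr1 and mt-Rnr2 lie below 0 in all 12 animals; mt-Nd2, mt-Nd4l and mt-Nd6 lie above 0 in all but vehicle animal 4 (open diamond).

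Nuclear-encoded partners were also lower in the IP as a rule, by less. Of the 75 genes for subunits of complexes I to V, 57 were lower and 8 higher, with a median of log2 −0.50, where 27.7% of all genes were lower and 28.2% higher. Among the lower were Ndufc1 (log2 −1.27), Ndufb5 (−1.35) and Ndufb4 (−1.34) of complex I, Cox7c (−1.34) of complex IV and Atp5g1 (−1.31) of ATP synthase (SE 0.06 to 0.10). Uqcrc1, a core subunit of complex III, was higher at 0.73 (SE 0.07). By complex the counts were 26 lower and 5 higher of 36 for complex I, 10 and 1 of 11 for complex IV and 13 and 1 of 15 for complex V. Of the 83 mitochondrial ribosomal protein genes, 39 were lower and 24 higher. Of the 37 genes for mitochondrial transcription, replication and RNA turnover 14 were lower and 8 higher, where 27.7% of all genes were lower and 28.2% higher. Among them Slirp, which stabilises mitochondrial messengers, had log2 −1.22, and Tbrg4 and Fastk of the FASTK family had 1.41 and 1.15. Of the 19 genes for mitochondrial RNA modification 9 were higher and 2 lower, with Mettl17 at 1.00 and Trmu at 0.67.

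The change of IP over input between groups, here called m6A enrichment, did not pass for any mt- gene in edgeR. Between vehicle and wild-type 0.962% of genes were called higher and 0.0273% lower. At an unadjusted p below 0.05 there were 6 of the 15 mt- genes and 2140 of all 18300 genes. All 15 fitted differences were below 0, from log2 −0.91 for mt-Nd4l (SE 0.29, edgeR adjusted p = 0.185) to −0.34 for mt-Rnr2 (SE 0.28), with a median of −0.51 against −0.06 over all genes. Without vehicle animal 4 the median was −0.14, mt-Nd6 and mt-Rnr2 had differences of 0.02 and 0.05, and the other 13 lay between −0.50 and −0.05.

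mt-Nd4l stood lower in vehicle animals with or without that animal. Its log2 ratio of IP to input was −0.01, −0.25, −0.30 and −0.26 in wild-type animals 1 to 4, −0.67, −0.74, −0.73 and −2.50 in vehicle animals and −0.43, −0.30, −0.39 and −0.37 in MS1262 animals. All vehicle animals lay below all animals of both other groups, and wild-type and MS1262 overlapped. It was the single mt- gene whose vehicle values lay wholly below the wild-type ones, which held for 3.26% of all genes (4.36% lay wholly above). Without vehicle animal 4 the difference was log2 −0.50 and was called (edgeR adjusted p = 0.0025), and DESeq2 called it with all animals (−0.90, adjusted p = 0.0368). The input level of the same gene enters this ratio, and it rose in vehicle animals as given above. mt-Nd4l had the lowest level per kb of annotated length of the 15 genes, which depends on the length used, and its reads could be shared with mt-Nd4.

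Without the low-count filter edgeR called 8 mt- genes lower between vehicle and wild-type: mt-Atp6, mt-Atp8, mt-Co1, mt-Nd1, mt-Nd2, mt-Nd3, mt-Nd4l and mt-Nd6. Over all alternatives run, the count of all genes called lower ran from 0 to 54. Between MS1262 and vehicle, edgeR with the filter and DESeq2 called none of the 15, and edgeR called none of all genes (0%). At an unadjusted p below 0.05 there were 2 of the 15 and 434 of all 18300 genes. All 15 differences were above 0, from log2 0.28 for mt-Nd5 (SE 0.22) to 0.74 for mt-Nd4l (SE 0.29), with a median of 0.50. Without vehicle animal 4 the median was 0.12, with values from −0.05 for mt-Nd5 to 0.34 for mt-Nd4l, and mt-Rnr2 was also below 0. In mt-Co2, mt-Co3 and mt-Nd4l every MS1262 animal lay above every vehicle animal, compared with 1.44% of all genes (0.787% lay wholly below). Without the filter mt-Atp8 and mt-Nd4l were called higher, and over all alternatives run 0 to 18 of all genes were. Between MS1262 and wild-type edgeR called none of the 15 (1.22% of genes higher, 0.0219% lower) and DESeq2 none, none had an unadjusted p below 0.05, and the differences ran from log2 −0.21 to 0.09. The values of these 2 groups overlapped for all 15, where 6.57% of all genes lay wholly above and 3.95% wholly below wild-type.

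Some nuclear partners were called in m6A enrichment, and how many depended on single animals and on the model. Between vehicle and wild-type, 6 of 36 complex I genes rose and none fell, where 0.962% of all genes rose, with Ndufb7 at log2 1.53 (SE 0.23, edgeR adjusted p = 0.0055), Ndufa13 at 0.68, Ndufs7 at 1.11 and Ndufb11 at 0.58. Input levels enter these ratios, and those of Ndufb7 and Ndufb11 had fitted differences below 0 between vehicle and wild-type, as given above. None of the 39 genes of complexes II to V passed in edgeR. At an unadjusted p below 0.05 there were 2 of complex III, 1 of complex IV, 1 of complex V and 0 of complex II. Over all 18300 genes there were 2140. Of the 83 mitochondrial ribosomal protein genes 8 rose, among them Mrpl53 (0.96) and Mrpl2 (1.35). Between MS1262 and wild-type, 4 complex I genes and 8 mitochondrial ribosomal protein genes rose, where 1.22% of all genes rose, including Ndufb7 (1.39) and Mrpl2 (1.53). These comparisons share the wild-type animals. The counts moved with single animals. Between vehicle and wild-type, 6 complex I and 9 ribosomal protein genes rose without vehicle animal 4, and 6 and 6 without vehicle animal 3. The complex I count was 1 without wild-type animal 1 or 4, vehicle animal 1 or MS1262 animal 2 or 3, 2 without wild-type animal 2 or 3 or MS1262 animal 4, and 3 without vehicle animal 2. The ribosomal protein count was 0 without wild-type animal 1 or 4 or vehicle animal 1, and 5 without wild-type animal 2. Between MS1262 and wild-type, the complex I count was 1 or 2 without any one wild-type or MS1262 animal and 7 without vehicle animal 4. The ribosomal protein count was 3 to 7 without one of those animals, lowest without wild-type animal 1, and 12 without vehicle animal 4. With the animal left out of the model, none of either list was called in either comparison.

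The deposited peaks show where on the chromosome the caller found IP signal above input. Per the file headers, MACS2 compared read 1 of each IP library with its own input, after limiting duplicates and scaling the larger library down. Peaks on the mitochondrial chromosome were present in 5 of 12 animals: wild-type animals 1, 3 and 4 with 19, 20 and 21 summits, vehicle animal 4 with 18 and MS1262 animal 1 with 4. Their fold enrichment, as the authors' caller gave it, was 1.21 to 1.397 in wild-type animal 1, 1.12 to 1.28 in animal 3, 1.143 to 1.35 in animal 4, 1.09 to 1.17 in MS1262 animal 1 and 1.28 to 2.51 in vehicle animal 4. The median over all peaks of these lists was 1.77 to 2.38.

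These 5 animals were those with the fewest kept IP tags for each kept input tag. The ratio was 0.666, 0.711 and 0.697 in the 3 wild-type animals, 0.329 in vehicle animal 4 and 0.862 in MS1262 animal 1, against 1.004 to 1.31 in the 7 animals without such peaks. The number of copies kept per position ran from 3 to 6 by library pair. The part of tag number and duplicate limit in these peaks was not tested. By estimated counts, which the duplicate limit does not touch, the IP held less than the input of all 15 genes in the same 5 animals.

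**Figure D5:**
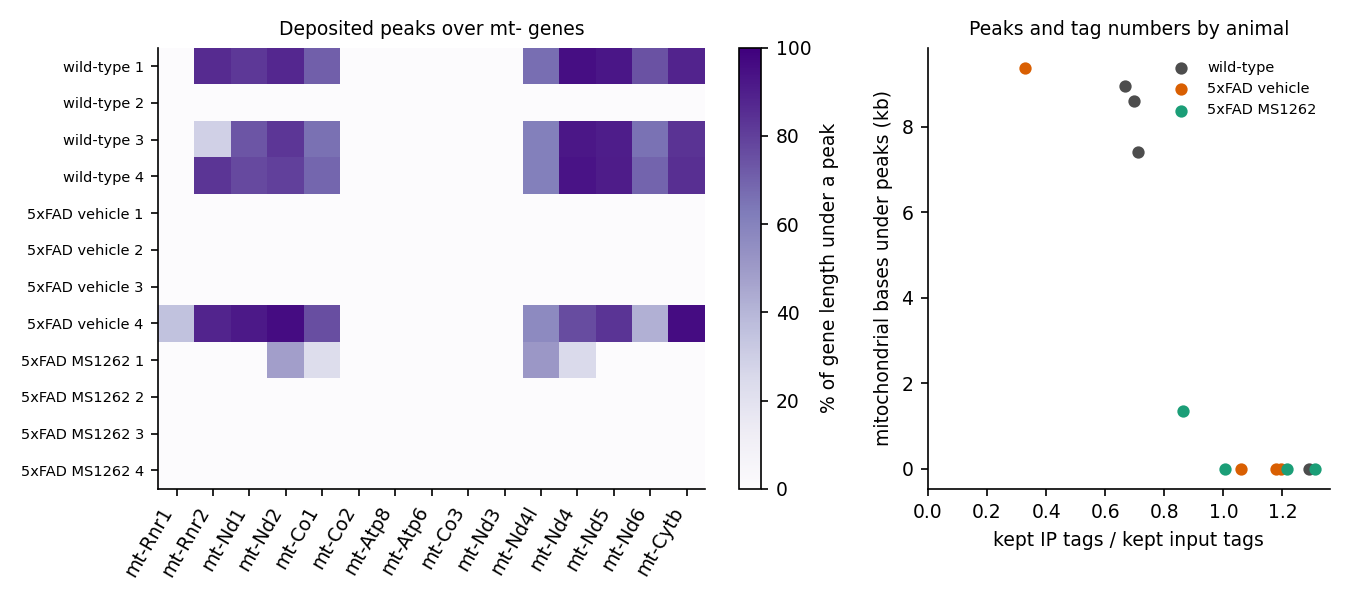
Left, percent of each mt- gene's length under a deposited peak, by animal; right, kilobases of the mitochondrial chromosome under peaks against the ratio of kept IP tags to kept input tags, 1 point per animal. The 5 animals with peaks have ratios of 0.329 to 0.862, and mt-Co2, mt-Atp8, mt-Atp6, mt-Co3 and mt-Nd3 have no peak in any animal.

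Merged over animals, the peaks formed 9 intervals on the mitochondrial chromosome (GRCm38). Those found in all 5 animals lay at 3871 to 4907 over mt-Nd2, at 5337 to 6504 over mt-Co1 and at 9976 to 11509 over mt-Nd4l and mt-Nd4. Those found in 4, without MS1262 animal 1, lay at 1211 to 2611 over mt-Rnr2, at 2797 to 3672 over mt-Nd1, at 11877 to 13938 over mt-Nd5 and mt-Nd6 and at 14169 to 15264 over mt-Cytb. An interval at 15623 to 16155, beyond the last gene, occurred in 3 animals, and one at 509 to 844 over mt-Rnr1 in vehicle animal 4 alone. The largest stretch without a peak, 6505 to 9975 (3471 bases), held mt-Co2, mt-Atp8, mt-Atp6, mt-Co3 and mt-Nd3. Depletion by estimated counts overlapped between genes with and without peaks. The least depleted genes, mt-Nd4l, mt-Nd5, mt-Nd6, mt-Nd2 and mt-Nd4, all lay under peaks. As means of the 3 groups, genes under peaks ranged from mt-Nd4l (log2 −0.57) to mt-Co1 (−1.44) and mt-Rnr2 (−1.69). mt-Rnr1, under a peak in vehicle animal 4 alone, lay at −2.15 by that mean and at −4.07 in that animal. Genes in the stretch without a peak ranged from mt-Co2 (−0.94) to mt-Nd3 (−2.45) by the mean.

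The nuclear genome holds copies of mitochondrial sequence, which can take up or lend reads. RefSeq places the pseudogene Gm10222, with the same length as mt-Nd4l (297 bases), at chr1:24612404-24612700, and Gm10925, with the same length as mt-Atp6 (681 bases), at chr1:24613971-24614651. Gm10222 had 0 counts in all libraries, and Gm10925 at most 354 in an input. The same 5 animals with peaks on the mitochondrial chromosome, and no other, had peaks around Gm10925, within chr1:24613193-24616190. Of 11 genes listed as such copies, the predicted gene Gm29216 held 99.9% of the input counts, 134640 to 434322 per input library. Gm29216 was listed as a copy from general knowledge and its position was not checked here, so the values for the copies rest on that listing. It had a log2 IP over input of −1.70 (SE 0.08), and −1.35 in vehicle animal 4. Between vehicle and wild-type it had log2 0.32 (SE 0.15, edgeR adjusted p = 0.385). With the copies added, the mt- share was 11.3 ± 0.931, 14.8 ± 2.05 and 13.4 ± 0.305% of input counts in wild-type, vehicle and MS1262 animals (SD, n = 4), in the same order as without them.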

How the data were processed

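Per the labels' protocols, RNA was selected by oligo(dT), 10% of 150 ng was kept as input, and a polyclonal anti-m6A antibody bound the remainder; libraries were SMART-seq without molecular identifiers, so floors cover counting error only. Upstream tools in the submitters' processing notes were MACS2 2.1.2, SAMtools 1.10, STAR 2.7.6a, Salmon 1.4.0, bcl2fastq 2.17.1.14 and Trimmomatic 0.32, with GRCm38 and mm10. The authors deposited estimated counts per gene (8.62% of values not whole; rounded here). The authors also deposited TPM, which are scaled by transcript length. Per the file headers, peaks used a q cutoff of 0.5 and an extension of 200 bases. The deposited peak lists give pileup signal, −log10 p and q values and fold enrichment over background; fold and q were used to describe and filter peaks.

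Tests across all genes used the quasi-likelihood F test of edgeR 4.0.16 (R 4.3.3; TMM scaling, filterByExpr with a minimum count of 10, Benjamini-Hochberg over all genes). Expression used the 12 inputs with group alone (9 residual degrees of freedom). IP over input and m6A enrichment used all 24 libraries, with the animal as block and an interaction of fraction and group. The SE beside an edgeR log2 fold change is its absolute value divided by the square root of the F statistic. CPM of single genes are TMM-scaled, and means are given with SD. Summed CPM of markers and nuclear-retained RNAs, and the CPM floor of the transfer RNAs, are scaled to library totals without TMM. DESeq2 1.42.0, limma 3.58.1 on log2(TPM + 1) and log2(TPM + 0.1), other scalings, no filter and leaving out each animal were alternatives; the tests were first tried on simulated data. Adding the nuclear copies to the mt- share, looking at peaks around Gm10925, and repeating the counts of nuclear lists and the medians with animals left out were chosen after seeing the data. Shares and peaks were described without a test. Gene positions are those of RefSeq on GRCm38. The labels number biological replicates and give no batch, dose or age.

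The mt- genes, nuclear lists, tests and naming rule were chosen with earlier results of these data known: all mt- genes, up to 4 genes per list with the smallest p in a comparison, and all merged mitochondrial peaks. Animals with the same number in different groups were not paired (correlations of deviations −0.0931 to 0.0538). In 12 of 12 animals input and IP correlated best with each other.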

Additional observations from a re-analysis of the deposited data

Results flagged for a closer look

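Of 108 sets of 4 values checked for a sample far from the others (each gene's input CPM and IP over input, and the shares, by group), 19 held one. Chance gives about 1 in 20 sets, but these sets share animals and genes, so no excess is read from the 19. In 11 of them the log2 IP over input of vehicle animal 4 lay far below the other vehicle animals: mt-Rnr1 (−4.07), mt-Rnr2 (−3.13), mt-Nd1 (−2.71), mt-Nd2 (−2.65), mt-Co1 (−2.34), mt-Atp8 (−3.74), mt-Atp6 (−2.94), mt-Nd4l (−2.50), mt-Nd4 (−2.17), mt-Nd5 (−1.88) and mt-Nd6 (−3.29). Its IP share of counts was low too, at 4.22% for all mt- genes and 3.92% for protein-coding ones. This library held 3.98 M counts, the fewest of all 24. In wild-type animal 1 the IP share was high, at 7.17% for all mt- genes and 6.58% for protein-coding ones. mt-Co1 was high in the input of wild-type animal 3 (23682 CPM). MS1262 animal 1 was low in input mt-Atp6 (22539 CPM) and mt-Nd6 (622 CPM) and high in the log2 IP over input of mt-Nd2 (−0.32).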

How the results depend on the processing

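The 5 mt- genes called higher between vehicle and wild-type became 3 without the low-count filter, 2 with animal number as a replicate block, 1 and 0 with limma on log2(TPM + 1) and log2(TPM + 0.1), 9 with DESeq2 and 1 to 6 with single animals left out. Animal numbers do not pair the animals, so the block is given only here. On log2(TPM + 0.1) the median of all genes in that comparison was −0.14. The count of m6A enrichment lower between vehicle and wild-type, 0, became 8 without the filter, 1 with DESeq2 and 0 to 1 with single animals left out. Between MS1262 and vehicle the count higher became 2 without the filter. For expression between MS1262 and wild-type it became 1 with DESeq2 and 0 to 1 with single animals left out. Scaling by RLE or without the mt- genes changed none of these counts. IP over input stayed at 15 lower for the mean of the groups and for vehicle under the alternatives run, and with single animals left out at 11 to 15 in wild-type and 12 to 15 in MS1262 animals; without the low-count filter it was 14 in wild-type and 15 in MS1262 animals. No replicate block (animal left out of the model) left 12 in wild-type and in MS1262 animals.

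Between MS1262 and vehicle inputs, mt-Rnr1 and mt-Rnr2 turned to 0.0664 and 0.0757 with limma under both pseudocounts. With single animals left out they ran from −0.14 to 0.12 and from −0.157 to 0.174, positive without vehicle animal 4 or MS1262 animal 1. Between MS1262 and wild-type inputs mt-Nd2 ran from −0.0126 (without wild-type animal 2) to 0.138. In m6A enrichment between vehicle and wild-type, mt-Nd6 ran from −0.866 to 0.0217 and mt-Rnr2 from −0.501 to 0.0467. Between MS1262 and vehicle, mt-Nd5 ran from −0.0454 to 0.420 and mt-Rnr2 from −0.00684 to 0.543, each crossing 0 without vehicle animal 4. The cause was not tested.

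Shares in wild-type, vehicle and MS1262 libraries rose to 39.9, 46.8 and 44.95% of TPM in input and 27.9, 25.7 and 31.1% in IP. Protein-coding genes over all counts but ribosomal RNA gave 9.49, 12.7 and 11.3% in input, and 6.03% in MS1262 IP; the copies raised MS1262 input to 13.4%. With single animals left out, mean input shares were 10.3 to 10.9, 13.1 to 14.5 and 12.6 to 12.8%, and IP shares 5.20 to 5.90, 5.56 to 6.30 and 6.41 to 6.67%. Among protein-coding mt- counts mt-Co3 held 8.88, 9.95 and 9.50%; among all mt- counts it held 7.71 to 7.91, 8.85 to 9.01 and 8.26 to 8.58% with single animals left out. Mitochondrial peaks with q at most 0.05 were 79 of 82, in the same 5 animals, and 7 merged intervals in at least 4 animals stood at either overlap. With 3.98 M counts in the IP of vehicle animal 4 and 4 animals a group, the SE of IP over input was at least as large in vehicle animals as in the other groups for most mt- genes.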
